A study of Mus musculus with 6 samples.

Results

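The genes described here build, bind and move along microtubules: the alpha, beta and gamma tubulins with the gamma tubulin complex, the MAP and tau proteins, the stathmins, and the kinesin, cytoplasmic dynein and dynactin motor genes. They were chosen by gene symbol, with no threshold on any value. Of 16504 named genes on the arrays, 79 fitted, measured by 95 probes: 4 alpha tubulins, 7 beta tubulins, 7 genes of gamma tubulin and its complex, 6 MAP and tau genes, 4 stathmins, 32 kinesins, 13 cytoplasmic dynein chains and 6 dynactin subunits.

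Microtubules are hollow polymers of alpha and beta tubulin dimers. They grow from gamma tubulin complexes, are steadied by MAPs and taken apart by stathmins. Kinesins mostly carry cargo toward the growing end of a microtubule, and dynein with its cofactor dynactin carries it the other way. A lens fiber cell lengthens many-fold along bundles of microtubules that run with its long axis, and as it matures it loses its nucleus and organelles.

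RNA of mature lens fiber cells and of elongating lens fiber cells was set against each other in the 2 channels of each of 6 mouse arrays. Mature fibers were in channel 1 on 3 arrays (titled lens249, lens487 and lens493) and elongating fibers were in channel 1 on the other 3 (lens250, lens488 and lens455). All lenses came from the GFP transgenic strain TgN(GFPU)5Nagy, and the GFP pattern marked the border between both zones. The promoter of the transgene is not given in the sources used here. Cells were cut by laser capture from sections 5 µm thick. For lens249 and lens250 the labels add postnatal day 5, pooled littermate lenses, at least 200 cells and about 40 slices. Nothing says which arrays came from separate animals or extracts, so the p-values measure only the spread between arrays, which may be technical.

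Each value is a log ratio between the channels, in deposited log units whose base is not stated, centred on the array's median and turned in sign on arrays with elongating fibers in channel 1. A turned value above 0 means more RNA in mature than in elongating fibers if channel 1 is the numerator, and less if channel 2 is. The sources used here do not say which, so the text speaks of a positive and a negative side. Dnase2b, the nuclease that degrades DNA in lens fibers, lay on the positive side at 1.81 ± 0.30 (SD, n = 6), and Cdh2, which encodes N-cadherin, on the negative side at -1.78 ± 0.54. A ratio holds no expression level, so a value near 0 does not tell an equal level from RNA that is absent in both zones, and levels cannot be compared between genes. Nor can fewer cells of a type be told apart from less RNA per cell.

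A gene was called at an adjusted p under 0.05 in limma, fitted over 19624 features with one term for mature against elongating fibers and one for the dye. Of the 79 genes, 2 were called, Tubb5 and Map4, both on the negative side. That is 2.53%, beside 1.73% of all features, and beside 1.36% called on the negative side. The share is near the background. At an unadjusted p under 0.05 there were 20 of the 79, 10 on each side, or 25.3%, beside 16.2% of all features. The counts by class and list below stand beside these shares of all features. One sign on all 6 arrays was seen in 7 of the 79 (8.86%), and in 9.17% of all features. The median of the 79 was -0.03, and that of all features 0.0030.

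Both called genes are shown by the 250 bases before a listed transcription start (RefSeq, GRCm38.p6), beside Tubb3, the beta tubulin with the highest turned mean, and Kif3a, the gene with the lowest. Map4 has 2 listed starts. The windows of Map4 and Kif3a lie inside the RefSeq span of the gene, which begins at position 109929841 for Map4 and 53565701 for Kif3a. Capitals mark 3 short promoter motifs, searched on both strands. The letters of the GC box are GGGCGG. Those of the CCAAT box are in its name and read ATTGG on the opposite strand. The TATA box was searched as TATAAA. In Kif3a a CCAAT box and a GC box overlap. Tubb5 is at chr17:35838302-35838551, minus strand. Map4 is at chr9:109931524-109931773, plus strand, and at chr9:110051771-110052020, plus strand. Tubb3 is at chr8:123411303-123411552, plus strand, and Kif3a at chr11:53567119-53567368, plus strand.
Tubb5: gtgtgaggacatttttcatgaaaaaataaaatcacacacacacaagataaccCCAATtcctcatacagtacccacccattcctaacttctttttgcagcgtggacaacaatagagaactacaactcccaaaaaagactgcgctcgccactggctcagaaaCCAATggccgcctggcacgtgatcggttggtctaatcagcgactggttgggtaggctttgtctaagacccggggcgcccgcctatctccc
Map4, first start: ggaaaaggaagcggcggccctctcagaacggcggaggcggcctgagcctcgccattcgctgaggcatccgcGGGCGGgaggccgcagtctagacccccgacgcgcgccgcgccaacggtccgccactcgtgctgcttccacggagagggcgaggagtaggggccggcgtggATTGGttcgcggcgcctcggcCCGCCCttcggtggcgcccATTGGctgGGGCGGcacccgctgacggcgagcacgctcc
Map4, second start: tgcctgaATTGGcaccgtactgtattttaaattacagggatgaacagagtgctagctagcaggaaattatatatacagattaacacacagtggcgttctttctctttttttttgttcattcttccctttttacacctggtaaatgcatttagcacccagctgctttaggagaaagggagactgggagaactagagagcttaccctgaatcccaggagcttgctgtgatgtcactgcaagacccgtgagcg
Tubb3: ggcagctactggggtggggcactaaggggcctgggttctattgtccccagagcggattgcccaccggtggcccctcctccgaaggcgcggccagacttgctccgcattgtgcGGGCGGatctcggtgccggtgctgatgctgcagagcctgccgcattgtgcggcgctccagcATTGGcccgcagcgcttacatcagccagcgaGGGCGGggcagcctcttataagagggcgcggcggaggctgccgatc
Kif3a: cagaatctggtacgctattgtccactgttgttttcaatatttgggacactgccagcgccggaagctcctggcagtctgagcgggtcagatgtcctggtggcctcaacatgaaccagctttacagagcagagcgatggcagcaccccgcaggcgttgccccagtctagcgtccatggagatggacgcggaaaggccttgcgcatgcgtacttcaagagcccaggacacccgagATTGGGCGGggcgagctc

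The Tubb5 window held 2 CCAAT boxes and 0 GC boxes, with 49.2% G and C. The first Map4 window held 3 GC boxes and 2 CCAAT boxes (74.0% G and C), and the second 1 CCAAT box (43.6%). Tubb3 had 2 GC boxes and 1 CCAAT box, and Kif3a 1 of each. Of the 79 genes, 60 had a listed window, 68 windows in all, and 55.9% of these held a GC box, 36.8% a CCAAT box and 10.3% a TATA box. Over all 32851 windows of that length the shares were 32.7%, 33.8% and 12.4%. A match describes the letters and no bound factor.

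**Figure D1:**
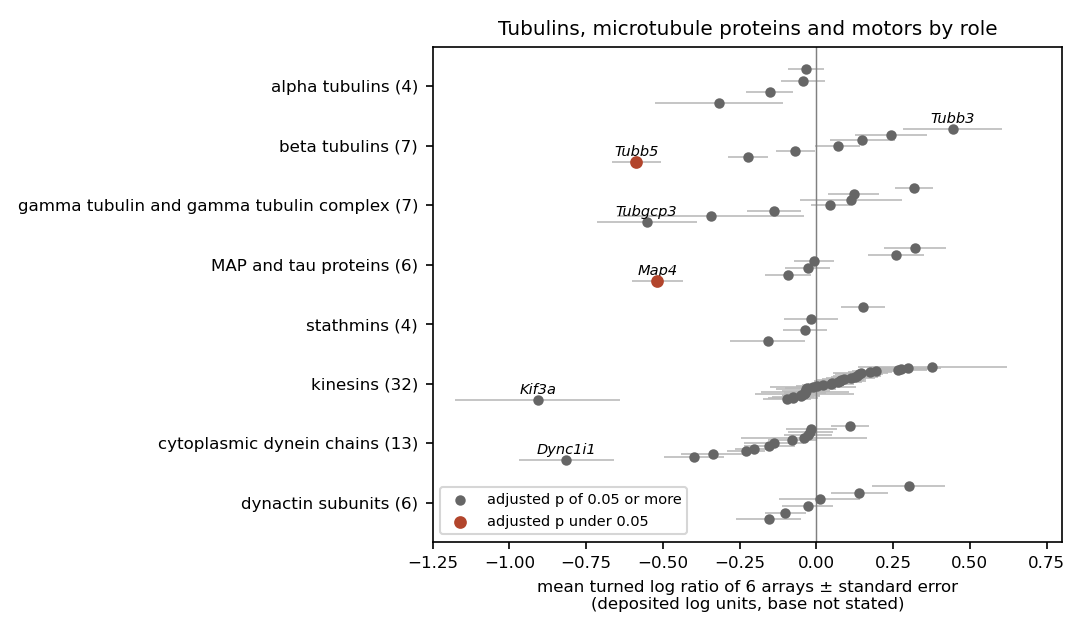
Mean turned log ratio of each of the 79 genes (horizontal axis, deposited log units of unstated base; positive is the side of Dnase2b), by role, with the standard error from the fit over 6 arrays; the number of genes stands beside each role. Tubb5 and Map4, in red, passed an adjusted p of 0.05; Kif3a and Dync1i1 had lower means but did not pass.

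Among the tubulins, Tubb5, which encodes a beta tubulin found in most cell types, was the one called. Its turned log ratios were -0.48, -0.74 and -0.32 with mature fibers in channel 1, and -0.85, -0.65 and -0.48 with elongating fibers in channel 1. All 6 arrays lay below 0, and both orientations overlapped. The mean was -0.59 ± 0.19 (SD, n = 6; standard error 0.08), with a limma adjusted p of 0.024. Read as log2 the mean is 1.5-fold, and read as log10 it is 3.86-fold. Without any 1 of the 6 arrays the call was lost (limma adjusted p from 0.056 to 0.11), and on 3 averaged pairs of arrays it was lost at 0.25, with the mean between -0.63 and -0.53 when an array was left out.

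The other beta tubulins spread over both sides, and 0 of these 6 were called, with 2 at an unadjusted p under 0.05 in limma. Tubb4b, another widely expressed isotype, lay below 0 on all 6 arrays, at -0.15, -0.41 and -0.38 with mature fibers in channel 1 and at -0.07, -0.10 and -0.24 with elongating fibers in channel 1. Its mean was -0.22 ± 0.14 (limma adjusted p = 0.16). Tubb3, the isotype best known from neurons, lay above 0 on 5 arrays, at 0.42, 0.32 and 0.50 with mature fibers in channel 1 and at 1.27, 0.16 and -0.01 with elongating fibers in channel 1. Its mean was 0.44 ± 0.44, about as large as its SD, and lens250 was the high array (limma adjusted p = 0.25). Tubb6 had 0.24 ± 0.42, Tubb2b 0.15 ± 0.30, Tubb4a 0.07 ± 0.15 and Tubb2a -0.07 ± 0.12. The 2 probes of Tubb2a lay on opposite sides, at 0.20 ± 0.24 and -0.33 ± 0.21, so the mean over both describes neither. Beta tubulin genes resemble each other closely in their coding sequence. How far each probe tells them apart was not tested.

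The 4 alpha tubulins lay below 0 on average, with 0 called and 0 at an unadjusted p under 0.05 in limma. Tuba1a, an alpha tubulin prominent in developing neurons, had -0.48, -0.54 and 0.18 with mature fibers in channel 1 and -0.44, -1.13 and 0.51 with elongating fibers in channel 1, a mean of -0.32 ± 0.58 (limma adjusted p = 0.52). On 3 of these arrays its deposited value was within 0.0015 of the one value that several crystallins share there: -0.466 on lens249, 0.45 on lens250 and 0.196 on lens493. There Tuba1a carries no value of its own that can be ordered against those crystallins, and what made the values equal was not tested. Of all probes, 34, 149 and 99 lay at these values on lens249, lens250 and lens493. Tubb2b was at the shared value on lens250 as well, and with it left out had 0.27 (limma adjusted p = 0.14). Tuba8 had -0.15 ± 0.18, Tuba4a -0.04 ± 0.18 and Tuba3a -0.03 ± 0.32.

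**Figure D2:**
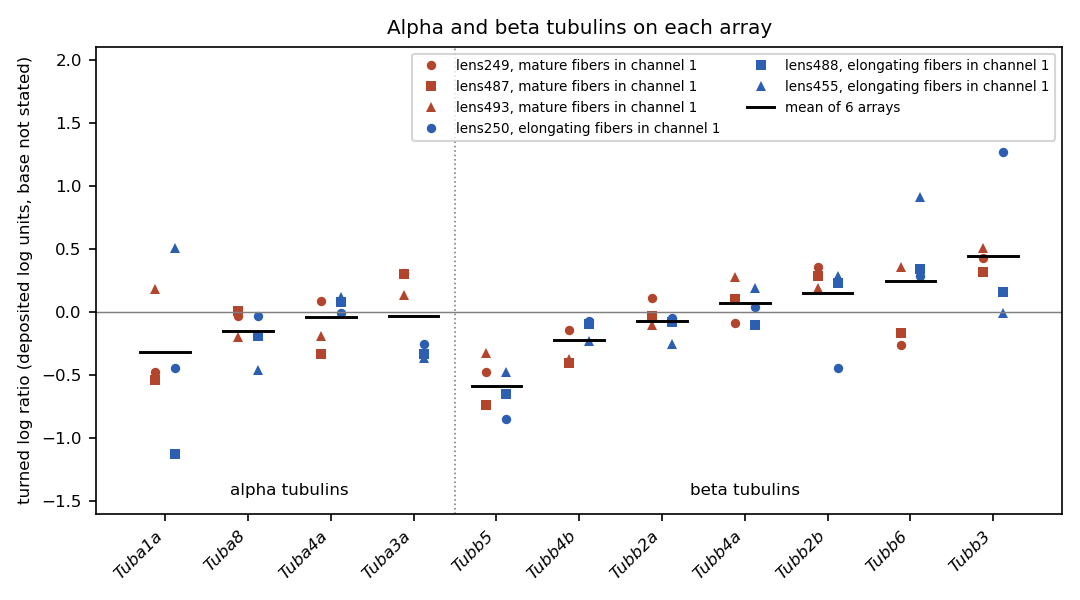
Turned log ratio (vertical axis, deposited log units of unstated base) of the 4 alpha and 7 beta tubulins on each of 6 arrays, by dye orientation, with the mean of 6 as a bar. Tubb5 and Tubb4b lie below 0 on all arrays, Tuba3a splits by orientation, and Tubb2b has 1 low array, lens250.

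Tuba3a showed the lowest p of the 79 for the dye term. It had 0.31, 0.30 and 0.14 with mature fibers in channel 1 and -0.25, -0.34 and -0.37 with elongating fibers in channel 1. Before turning, its ratio thus had one sign on all arrays, whichever zone was in channel 1. The kinesin Kif17 lay at -0.74, -0.69 and -0.11 with mature fibers in channel 1 and at 1.39, 2.23 and 0.19 with elongating fibers in channel 1. The mitotic kinesin Kif20b lay at -0.24, -0.37 and -0.20 with mature fibers in channel 1 and at 0.29, 0.08 and 0.14 with elongating fibers in channel 1. In both genes the orientations did not overlap. After adjustment 0 of the 79 had a dye effect in limma, the smallest adjusted p being 0.27. Before adjustment 8 of the 79 passed the 0.05 threshold for the dye term (10.1%), beside 12.6% of all features.

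Gamma tubulin seeds new microtubules as part of a ring complex with the GCP proteins, encoded by the Tubgcp genes. Of these 7 genes 0 were called in limma, with 1 on each side at an unadjusted p under 0.05. Tubgcp6 had the narrowest spread, at 0.37, 0.35 and 0.18 with mature fibers in channel 1 and 0.32, 0.45 and 0.23 with elongating fibers in channel 1. All 6 lay above 0, the one gene of the 79 on the positive side throughout, with a mean of 0.32 ± 0.10 (limma adjusted p = 0.064). Without the dye term the limma adjusted p was 0.0499, while 18 of 19 settings left Tubgcp6 uncalled. Leaving out 1 array gave a limma adjusted p from 0.12 to 0.22. On lens493 Tubgcp6 too lay within 0.0015 of the shared crystallin value. Tubgcp3, a core member of the ring, had -0.55 ± 0.44 (limma adjusted p = 0.17). It was near 0 on lens249 (0.04) and lens250 (-0.06), and between -1.05 and -0.68 on the other arrays. Tubg1, the main gamma tubulin gene, had -0.35 ± 0.86 and changed sign between arrays, while Tubg2 had -0.14 ± 0.22.

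Of the 6 MAP and tau genes, Map4, the MAP of non-neuronal cells, was called. Its turned log ratios were -0.34, -0.62 and -0.50 with mature fibers in channel 1, and -0.80, -0.57 and -0.29 with elongating fibers in channel 1. All 6 lay below 0, and both orientations overlapped. The mean was -0.52 ± 0.19 (SD, n = 6; standard error 0.08), with a limma adjusted p of 0.036, which reads as 1.43-fold in log2 and as 3.30-fold in log10. As with Tubb5, leaving out any 1 array ended the call (limma adjusted p from 0.054 to 0.14), as did averaging the arrays in 3 pairs (0.25); the mean stayed between -0.58 and -0.46.

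Map2 and Map1b, MAPs of neurons, had positive means and were not called. Map2 had -0.21, 0.35 and 0.24 with mature fibers in channel 1 and 0.71, 0.62 and 0.22 with elongating fibers in channel 1 (mean 0.32 ± 0.33, limma adjusted p = 0.19). Map1b had 0.26 ± 0.38 (limma adjusted p = 0.23), and lens249 was the one array below 0 for both genes. Stathmins bind tubulin dimers and promote the shrinking of microtubules: Stmn1 had -0.16 ± 0.32, Stmn2 0.15 ± 0.21 and Stmn3 -0.04 ± 0.17. Of the 4 stathmins 0 were called and 0 passed an unadjusted p of 0.05 in limma.

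Of the 32 kinesins 0 were called in limma, with 5 positive and 1 negative at an unadjusted p under 0.05 (18.75%, beside 16.2% of all features). Their median was 0.05, and 25 of 32 lay within 0.15 of 0. Kif3a, a motor subunit of the heterotrimeric kinesin-2 that carries cargo into cilia, had the lowest mean of the 79, -0.91 ± 0.80 (limma adjusted p = 0.17). It had -1.43, -0.07 and -1.91 with mature fibers in channel 1 and -1.19, 0.16 and -1.01 with elongating fibers in channel 1. The 2 arrays near 0 were lens487 and lens488. Its 2 probes differed in size, at -0.42 ± 0.92 and -1.40 ± 0.72 (limma adjusted p = 0.58 and 0.051 when each probe was tested alone), and both were highest on lens488 and lowest on lens493.

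Among the cargo motors, 3 of 3 kinesin-1 and 5 of 6 kinesin-3 genes had means above 0, as did 51.0% of all features. Among those above 0, the mean with mature fibers in channel 1 alone was below 0 for Kif13b (-0.0083) and Kif5a (-0.12). With elongating fibers in channel 1 alone it was below 0 for Kif5b (-0.063) and Kif1a (-0.0047). Kif5a, Kif5b and Kif1a are named here after their values were seen and are not among the 43 named genes. Kif5c, a kinesin-1 heavy chain, had 0.28 ± 0.25 (limma adjusted p = 0.20). Kif1c had 0.27 ± 0.24, Kif1b 0.30 ± 0.30 and Kif13b 0.175 ± 0.24 among the kinesin-3 genes, and Kif9 had 0.19 ± 0.17, with limma adjusted p from 0.24 to 0.29. The Kif1b mean rested on 1 of 2 probes, at 0.55 ± 0.64, while the other had 0.04 ± 0.35. The 2 probes of Kif13b also differed, at 0.04 ± 0.20 and 0.31 ± 0.45. The 10 mitotic kinesins, motors of the spindle and of cell division such as Kif11 and Kif23, had means from -0.10 to 0.14 and a median of -0.03, and 0 passed an unadjusted p of 0.05 in limma.

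Cytoplasmic dynein is built from heavy, intermediate, light intermediate and light chains. Of its 13 genes 12 had a mean below 0, where 9614 of all 19624 features did, with a median of -0.14. With elongating fibers in channel 1 alone every mean was below 0. With mature fibers in channel 1 alone means were above 0 for Dync1li1 (0.24), Dync2h1 (0.059), Dync2li1 (0.054), Dynlrb2 (0.012) and Dynlt1b (0.067). The probes of Dync1li2, of Dync2h1 and of Dynll2 lay on both sides of 0. All of these but Dync2li1 are named after their values were seen and are not among the 43 named genes. In limma 0 of the 13 were called and 5 passed an unadjusted p of 0.05 (38.5%), all 5 negative. Of all features 16.2% passed it, with 1755 of 19624 on the negative side. Dync1i1, an intermediate chain best known from neurons, had -0.81, -1.14 and -0.49 with mature fibers in channel 1 and -1.13, -1.17 and -0.15 with elongating fibers in channel 1. All 6 lay below 0, with a mean of -0.81 ± 0.42 (limma adjusted p = 0.058). Without lens455 it was -0.98 and passed (limma adjusted p = 0.042), as it did without the dye term (0.028). Of 19 settings 17 left Dync1i1 uncalled. Its limma adjusted p was 0.31 on 3 averaged pairs, and 0.22 and 0.26 in the single orientations. Without any other single array it ran from 0.099 to 0.18.

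Dync1i2, the widely expressed intermediate chain, also lay below 0 on 6 arrays but was smaller, at -0.23 ± 0.18 (limma adjusted p = 0.14). The light chain Dynlt3 had -0.40 ± 0.25 and was below 0 on 6 arrays, while the light chain Dynll1 had -0.34 ± 0.26 and the heavy chain Dync1h1 -0.20 ± 0.16, each below 0 on 5 (limma adjusted p from 0.11 to 0.18 for these 3). Dynactin links dynein to cargo. Of its 6 genes 3 had means above and 3 below 0, with 0 called and 1 at an unadjusted p under 0.05 in limma. That one was Dctn5, at 0.30 ± 0.32 (limma adjusted p = 0.28), while Dctn2 had 0.14 ± 0.23 and Dctn4 -0.10 ± 0.16.

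Some genes varied more between pairs of arrays than within them. The titles give 3 pairs of opposite orientation, lens249 and lens250, lens487 and lens488, and lens493 and lens455, the last by exclusion. Across features their deviations from the orientation means correlated at 0.19, 0.58 and 0.37, and the 6 other combinations lay below 0. The deviations in an orientation sum to 0, which pushes those combinations down. The turned values themselves correlated at 0.137, 0.611 and 0.449 in the title pairs. Of the other combinations lens487 with lens250 had the highest value, 0.157, above that of lens249 with lens250. Genes are not independent replicates, so these values carry no p. Should paired arrays hold the same RNA, n is 3. On the 3 averaged pairs 0 features were called in limma. At an unadjusted p under 0.05 there were then 17 of the 79, and 2395 of all features (12.2%).

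In 4 of the 79 genes the pair means lay over 1 log unit apart, as in 5.9% of all features. Tubg1 had pair means of -0.43 (lens249 and lens250), 0.63 (lens487 and lens488) and -1.24 (lens493 and lens455), with arrays of a pair at most 0.60 apart. Kif3a had -1.31, 0.04 and -1.46 in that order. Dync2li1, a light intermediate chain of the dynein of cilia, had -0.02, -0.685 and 0.58, and Tuba1a -0.46, -0.83 and 0.34. For these 4 a mean over the 6 arrays does not describe every pair. The Tuba1a pair means rest in part on the shared crystallin value, at which this gene lay on lens249, lens250 and lens493. Tubb5 had pair means of -0.66, -0.70 and -0.40, and Map4 -0.57, -0.59 and -0.39, with the 3 pairs on one side.

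**Figure D3:**
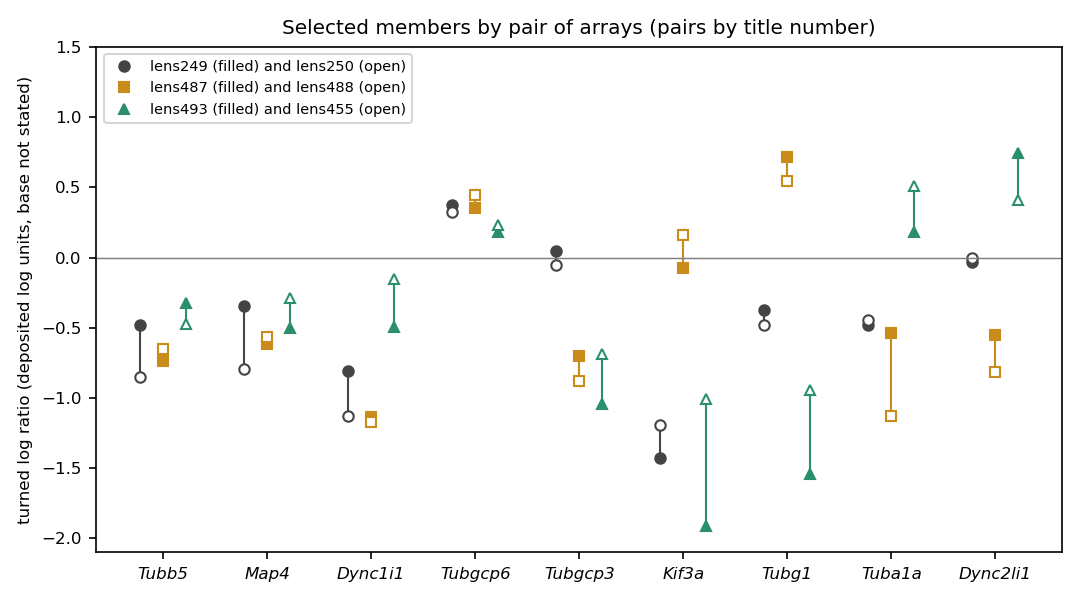
Turned log ratio (vertical axis, deposited log units of unstated base) of 9 genes, with the arrays grouped in 3 pairs by title number; filled points have mature fibers in channel 1 and open points elongating fibers. Tubb5 and Map4 lie below 0 in every pair, while Tubg1, Tuba1a and Dync2li1 lie on different sides in different pairs and Kif3a is near 0 in 1 of 3. Tuba1a lies at the shared crystallin value on lens249, lens250 and lens493.

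Other microtubule genes outside the 79 were counted from 8 lists of 162 genes, of which 137 were measured. The lists were chosen with earlier results of these data known, so their shares are no independent test. In limma 5 were called (3.65%), of which 3 were positive and 2 negative, beside 1.73% of all features. The largest was Ndel1, a regulator of dynein and partner of Lis1. It had 1.00, 0.52 and 1.10 with mature fibers in channel 1 and 0.90, 1.12 and 1.77 with elongating fibers in channel 1, a mean of 1.07 ± 0.41 (limma adjusted p = 0.020). All 6 arrays lay above 0, the side opposite to the mean of Dync1i1.

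Of the 24 tubulin modifying enzymes 2 were called (8.33%), both positive, beside 1.73% of all features. Svbp encodes the small partner that the vasohibins need to cut the last tyrosine from alpha tubulin. It had 0.63, 0.78 and 1.22 with mature fibers in channel 1 and 0.38, 0.84 and 0.87 with elongating fibers in channel 1 (mean 0.79 ± 0.28, limma adjusted p = 0.023). Sirt2, a deacetylase whose substrates include alpha tubulin, had 0.37, 0.67 and 0.71 with mature fibers in channel 1 and 0.34, 0.74 and 0.53 with elongating fibers in channel 1 (mean 0.56 ± 0.17, limma adjusted p = 0.026). Both genes lay above 0 on all 6 arrays.

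Of the 12 tubulin folding and prefoldin genes 1 was called (8.33%, beside 1.73% of all features), Tbcd, a cofactor that assembles the tubulin dimer. It lay on the side of Tubb5, at -0.65, -1.14 and -0.46 with mature fibers in channel 1 and -0.76, -0.89 and -0.47 with elongating fibers in channel 1 (mean -0.73 ± 0.26, limma adjusted p = 0.027). With the arrays scaled to one spread its limma adjusted p was 0.0506. Of 28 other microtubule-associated proteins 1 was called (3.57%), Eml1. It had -0.97, -1.16 and -0.77 with mature fibers in channel 1 and -0.82, -0.79 and -0.04 with elongating fibers in channel 1 (mean -0.76 ± 0.38, limma adjusted p = 0.034). Array lens455 stood near 0. None was called among 6 severing proteins, 16 end-binding proteins, 17 nucleation and centrosome genes and 13 axonemal dynein chains, where 1, 2, 3 and 3 passed an unadjusted p of 0.05 in limma. On the 3 averaged pairs 0 of the 137 were called (limma adjusted p of the 5 from 0.25 to 0.28), and 18 passed an unadjusted p of 0.05. Without lens249, lens487, lens488 or lens493 0 were called, and without lens250 or lens455 2 were.

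**Figure D4:**
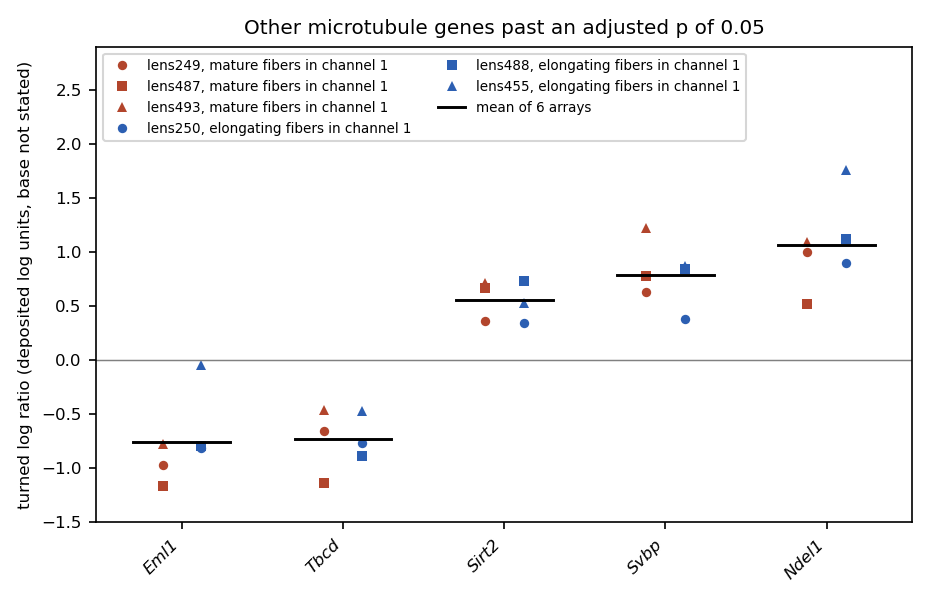
Turned log ratio (vertical axis, deposited log units of unstated base) on each of 6 arrays for the 5 other microtubule genes past an adjusted p of 0.05, with the mean of 6 as a bar. Eml1 and Tbcd lie below 0, and Sirt2, Svbp and Ndel1 above 0, on every array.

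Markers of the cells a dissected zone could hold were set beside these values. Of 9 measured lens fiber markers 2 were called (22.2%, beside 1.73% of all features), Dnase2b and Lctl, both positive. The mean of the list ran from 0.06 to 0.68 over the arrays. Dnase2b and Lctl had the highest means of the list, and 3 of the 9 had means below 0: Crygs at -0.34, Cryba1 at -0.30 and Gja3 at -0.02. On lens249, lens250 and lens493 Cryba1 had the same turned values as Tuba1a (-0.48, -0.44 and 0.18), which are the shared crystallin value there. Its mean thus rests in part on values that are not its own. Of 10 lens epithelium markers 1 was called (10%), Col4a1, at -0.95 ± 0.38 (limma adjusted p = 0.030), on the side of Tubb5 and Map4. The list mean ran from -0.24 to 0.08. Of the 10, 4 had means above 0, among them Aqp1 at 0.57, positive on all 6 arrays (limma adjusted p = 0.086). Pax6, at -0.59, was negative on all 6 (limma adjusted p = 0.13). Of 13 neuron and retina markers 0 were called and 0 passed an unadjusted p of 0.05 in limma, with a list mean from -0.04 to 0.11. Of 7 blood and vessel markers 0 were called or passed an unadjusted p of 0.05 in limma, with a list mean from -0.09 to 0.15. Of 6 macrophage and leukocyte markers 1 was called (16.7%), Laptm5 (0.35 ± 0.21, limma adjusted p = 0.039), with a list mean from -0.05 to 0.13. Their part in the results above was not tested, and ratios cannot show whether a marker was absent.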

How the data were processed

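Two-colour arrays of mature against elongating lens fibers were used as the authors deposited them, as log ratios for 22575 probes. Not given in the sources used here are their log base, which channel is on top, and how background and normalization were handled. Array medians lay between -0.006 and 0.025. Since the base is unknown, tests were run on deposited log units. Their result does not depend on the base. Without intensities, no error can be given for one array's ratio. That of a mean is limited by how many arrays there are.

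Probe names came from the platform's annotation: 18218 probes had 1 symbol, 16 several and 4341 were unlisted. By gene ID 18175 matched RefSeq (GRCm38.p6), with 0 symbols updated. Unlisted probes that share one profile in groups of 49 or more, 1032 in all, were dropped. Each array was centred on its median, the sign was turned where elongating fibers were in channel 1, and probes of a gene were averaged (14 of the 79 genes had several). The fit was limma 3.58.1 in R 4.3.3 (lmFit, eBayes, two-sided, Benjamini-Hochberg over 19624 features), checked on simulated ratios. The simulated arrays were independent, so that check cannot cover arrays that share RNA. Figures used matplotlib 3.10.9. SDs are over the 6 turned arrays and include each gene's dye effect.

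The labels give no replicate numbers. After the data were seen, pairing by title number was checked by the correlation of deviations from the orientation means (0.19, 0.58 and 0.37). With pairs as a random block the correlation within pairs, as one value for all features, was 0.13. Calls lost on 3 averaged pairs are given beside the results. The genes and lists were chosen with earlier results of these data known. Named were all called genes, all alpha and beta tubulins and the 3 lowest p-values of each role (29 of the 79, and 5 others). Another 9 were added after values were seen: an unadjusted p under 0.05, pair means over 1 log unit apart, or a strong dye effect.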

Additional observations from a re-analysis of the deposited data

Results flagged for a closer look

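Of 43 named genes, 3 had a single array standing apart from the 5 others. Chance alone gives about 1 in 20 genes, or 2.15, if the arrays are independent and normally spread. The named genes were chosen in part by their values, so that rate may not hold for them. Dctn5 had -0.32 on lens249, where the other arrays lay between 0.24 and 0.57. Eml1 had -0.044 on lens455, with the others between -1.16 and -0.77. Tubb2b had -0.44 on lens250, with the others between 0.19 and 0.35; that is the array where its deposited value equals the one several crystallins share.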

How the results depend on the processing

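The count of 2 called genes among the 79 became 4 with no dye term, 0 on 3 averaged pairs, 0 in each orientation alone, and 0 to 1 when 1 array was left out. For all features, 339 became 0 on averaged pairs, 0 in each orientation alone, and 16 to 117 without 1 array. The 5 other microtubule genes became 0 on averaged pairs, 0 in each orientation alone, and 0 to 2 without 1 array. With pairs as a random block, chosen after seeing the data, 2, 282 and 5 were called. No centring, scaling, quantile normalization, median of probes, robust eBayes, shared values set to missing, named genes alone and single probes each left these counts within 1.5 times. The mean of Tubb5 and Map4, -0.55, lay between -0.61 and -0.50 without 1 array. Signs changed only among uncalled genes. The called genes had one sign on all 6 arrays, so leaving out or averaging arrays could not change theirs. Without 1 array, Dync2li1 ran from -0.21 to 0.13, Stmn3 from -0.10 to 0.0027 and Tuba4a from -0.10 to 0.0036. With the orientation of mature fibers in channel 1 alone, the values were 0.0537 for Dync2li1, -0.0083 for Kif13b, -0.51 for Kif17, -0.0283 for Map1b, 0.0513 for Stmn3, 0.25 for Tuba3a and -0.023 for Tubb6; with the other alone, 0.17 for Kif20b and 0.0627 for Tuba4a. Tuba3a had 0.0017 with arrays scaled and 0.0011 after quantile normalization. The cause was not tested. Averaged pairs use every array but enter the fit as 3 values, while single orientations and fits without 1 array use fewer arrays. No signal over background could be assessed.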
